A study of Mus musculus with 2 samples.

Results

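The genes described here are 39 genes of sugar metabolism, chosen by name. They cover the breakdown of glucose to lactate and the kinases that gate the oxidation of pyruvate inside mitochondria. They also cover the pentose phosphate pathway, glycogen metabolism and the fructose bisphosphatases that run against glycolysis. All 39 were found among the 49492 genes of the count table. They were measured by RNA sequencing in colonies and organoids grown from mammary basal cells of wild-type adult female mice aged 8 to 10 weeks. The starting cells had been sorted as lineage-negative cells with CD24 and high CD29, and they were grown in a 3D matrix (Matrigel) with EGF and insulin-transferrin-selenium. Basal cells grown alone gave 1 library (ctrl). Basal cells grown for 11 to 14 days in wells shared with bone marrow macrophages, which IL-4 and IL-13 had polarised towards an M2-like state, gave the other library (M2). A porous insert kept the macrophages apart from the matrix, and the comparison asks what their presence changes in the cultures. The colonies and organoids hold luminal as well as basal cells, as the marker genes given below also show, so the values are those of a mixture and not of basal cells alone. With 1 library per group there was no replicate check, so each difference below is a difference between these libraries, and its interval covers counting error only. In bulk RNA, fewer cells of a type and less RNA per cell cannot be told apart.

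Glycolysis splits glucose into pyruvate in the cytosol and yields ATP and NADH, and lactate dehydrogenase turns pyruvate into lactate when NADH must be reoxidised outside mitochondria. The upper part of the pathway spends ATP to make triose phosphates, and the lower part regains it. Many steps are encoded by several isoforms that differ in affinity, regulation and tissue. Glucose 6-phosphate also feeds the pentose phosphate pathway, which supplies NADPH and ribose, and glycogen, the storage polymer. In the mammary gland, glucose is in addition a building block of lactose in milk-secreting luminal cells. Genes of glycolysis are a textbook group of targets of the hypoxia-inducible factors, which bind DNA at a short motif with the core ACGTG or GCGTG.

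The ctrl library held 26912610 reads in genes and the M2 library 29413844. Keratin genes of basal cells were abundant in both, with 81991 and 68968 reads of Krt14, and so were the luminal keratins, with 29888 and 36348 reads of Krt8. The 6 basal markers summed to 205068 and 215935 reads. Of these, 1 was called lower in M2, Oxtr, with 8324 and 1920 reads and a log2 fold difference of -2.18 (-2.26 to -2.11). The 8 luminal markers summed to 73768 and 66873 reads, with 4 of the 8 called lower in M2 (Elf5, Esr1, Pgr and Foxa1). Of 14 macrophage markers, 8 had at most 3 reads in both libraries, and Ptprc, Adgre1, Tyrobp, Fcer1g and Chil3 had 0 reads in both. Other markers of that list did have reads. Arg1 had 1507 reads in ctrl and 2090 in M2, which is 0.40 on the log2 scale (0.31 to 0.50) and was not called. Cd68 had 170 and 165 reads, and Csf1r had 94 and 92. The whole list summed to 1784 and 2367 reads. Without Arg1, that list summed to 277 reads in each library. The 6 fibroblast markers summed to 8800 and 3812 reads, with 1 called higher (Dcn, 51 and 157 reads) and 2 lower (Col1a2 and Col3a1). The 6 skeletal muscle markers summed to 306 and 795 reads, with 3 called higher and 0 lower. The 6 adipocyte markers summed to 267 and 19 reads, with 2 called lower (Lep, 198 and 6, and Fabp4, 62 and 10). The 4 endothelial markers summed to 57 and 81 reads. Pecam1 was called higher (33 and 76), and Cdh5 (11 and 2) and Kdr (11 and 0) were called lower. The globin genes had 0 reads, and the fifth red cell marker, Alas2, had 39 and 21. The part of these other cell types in the results below was not tested.

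Most steps of glycolysis had more reads in the M2 library, the 4 pentose phosphate genes ran from -0.53 to 0.20 on the log2 scale, and both fructose bisphosphatases had fewer reads. Of the 39 genes, 19 were called higher and 1 lower in M2, and 19 were not called. A gene was called when its adjusted p, from an exact binomial test on the reads of the libraries with Benjamini-Hochberg adjustment over 19233 genes, was under 0.05 and the difference was at least 2-fold. Among all genes tested, 8.16% were called higher and 6.55% lower. The median log2 fold difference of the 39 genes (M2 over ctrl, with 28 values above 0 and 11 below) was 0.88, against -0.0032 over all genes tested, and the values ran from -2.02 for Fbp2 to 5.58 for Slc16a3. For 18 of the 20 called genes the whole 95% interval lay beyond 2-fold, and for Pfkfb3 and Aldoc it reached inside. Of the 19 genes that were not called, 8 were higher and 5 were lower at an adjusted p under 0.05 with a difference under 2-fold, and 6 had an interval that included 0. With an assumed coefficient of variation between cultures of 0.1, edgeR's exactTest called 19 higher and 1 lower, where 7.33% and 5.65% of all genes were called. With 0.2, it called 13 higher and 1 lower, where 5.01% and 3.59% of all genes were called. With 0.4, it called 3 higher (Slc16a3, Pdk4 and Pygl) and 0 lower, where 0.91% and 0.676% of all genes were called.

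**Figure D1:**
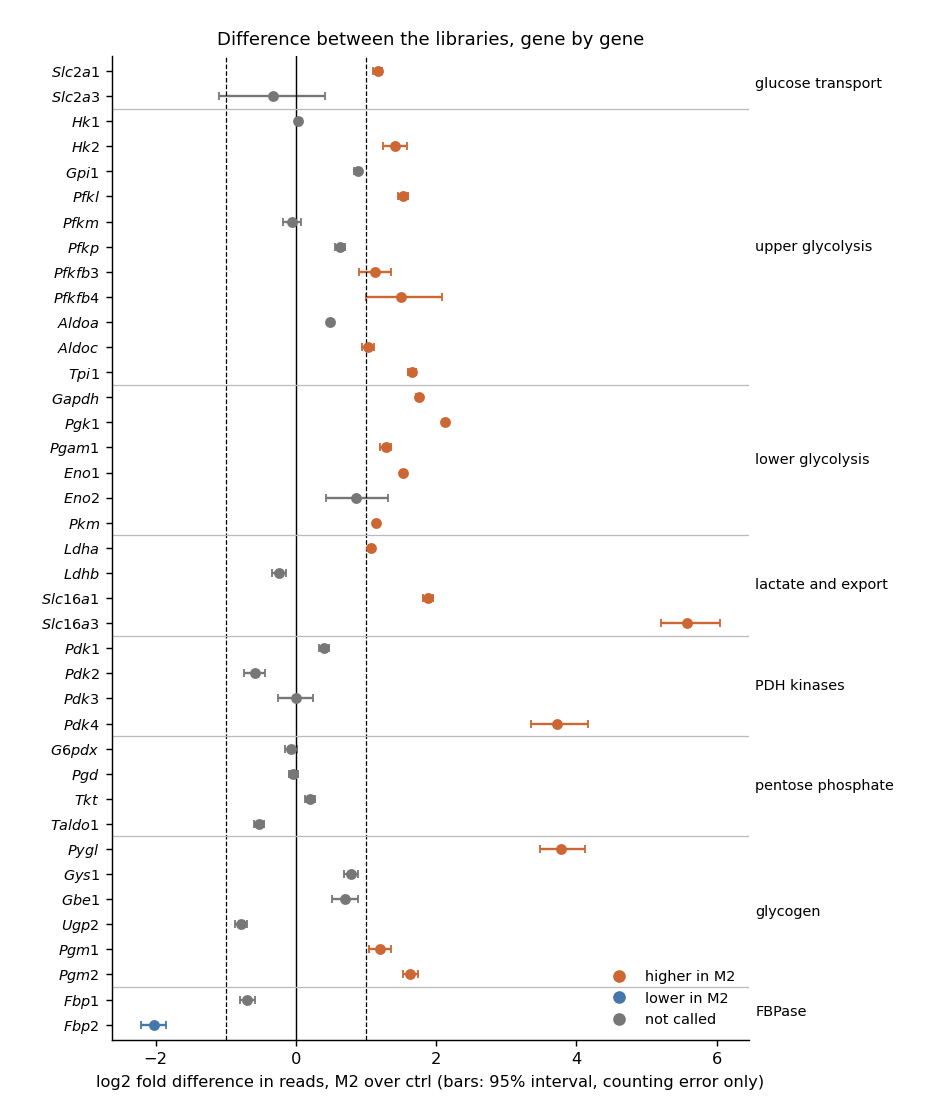
Log2 fold difference in reads between the M2 and ctrl libraries for each of the 39 genes, grouped by role, with 95% intervals for counting error only and dashed lines at 2-fold. Orange marks the 19 genes called higher in M2, blue the 1 called lower and grey the 19 not called, and Slc16a3, Pygl and Pdk4 lie far to the right of the rest.

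The stretches of DNA just before the start sites of the 6 genes with the highest log2 fold difference and of the 1 gene with the lowest are shown next, since these genes mark both ends of the range. Each window is the 250 bases upstream of the start that RefSeq annotates on GRCm38.p6, printed 5′ to 3′ on the strand of the gene without its last bases where GENCODE M21 places an exon of the gene there (14 bases for Slc16a3, 31 for Pdk4 and 22 for Fbp2). Capitals mark each ACGTG or GCGTG, or its reverse complement CACGT or CACGC. In GENCODE M21 the window of Pygl overlaps an exon of the noncoding gene F730035M05Rik on the opposite strand, and no other printed stretch overlaps an annotated exon.
Slc16a3 (chr11:120948817-120949052, plus strand): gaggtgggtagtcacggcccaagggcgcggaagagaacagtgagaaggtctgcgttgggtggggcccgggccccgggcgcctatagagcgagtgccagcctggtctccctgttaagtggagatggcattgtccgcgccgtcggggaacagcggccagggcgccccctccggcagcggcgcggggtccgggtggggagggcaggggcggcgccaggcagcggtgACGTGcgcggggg
Pygl (chr12:70227684-70227933, minus strand): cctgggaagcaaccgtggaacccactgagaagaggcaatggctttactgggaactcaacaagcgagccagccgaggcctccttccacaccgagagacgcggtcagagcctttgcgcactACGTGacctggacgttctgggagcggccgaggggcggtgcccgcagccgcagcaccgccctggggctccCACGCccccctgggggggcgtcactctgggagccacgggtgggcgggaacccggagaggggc
Pdk4 (chr6:5496310-5496528, minus strand): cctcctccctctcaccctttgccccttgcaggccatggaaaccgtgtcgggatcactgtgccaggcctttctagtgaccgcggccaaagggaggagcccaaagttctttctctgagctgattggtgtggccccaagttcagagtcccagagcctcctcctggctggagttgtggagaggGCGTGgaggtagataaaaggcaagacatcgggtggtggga
Pgk1 (chrX:106186850-106187099, plus strand): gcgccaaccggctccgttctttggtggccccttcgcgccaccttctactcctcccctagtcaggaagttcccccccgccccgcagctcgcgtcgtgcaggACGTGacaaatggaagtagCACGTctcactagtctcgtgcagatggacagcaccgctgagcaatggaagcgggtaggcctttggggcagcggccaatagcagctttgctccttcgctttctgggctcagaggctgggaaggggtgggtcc
Slc16a1 (chr3:104638414-104638663, plus strand): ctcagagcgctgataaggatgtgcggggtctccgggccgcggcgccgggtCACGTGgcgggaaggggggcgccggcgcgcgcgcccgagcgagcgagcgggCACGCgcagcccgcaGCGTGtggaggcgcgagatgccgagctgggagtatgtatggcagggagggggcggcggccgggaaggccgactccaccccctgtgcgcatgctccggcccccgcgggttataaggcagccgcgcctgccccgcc
Gapdh (chr6:125165774-125166023, minus strand): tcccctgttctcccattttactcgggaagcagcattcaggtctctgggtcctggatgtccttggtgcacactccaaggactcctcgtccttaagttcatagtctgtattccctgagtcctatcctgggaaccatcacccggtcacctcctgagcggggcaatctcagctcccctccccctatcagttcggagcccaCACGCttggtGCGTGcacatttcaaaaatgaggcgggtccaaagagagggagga
Fbp2 (chr13:62858423-62858650, minus strand): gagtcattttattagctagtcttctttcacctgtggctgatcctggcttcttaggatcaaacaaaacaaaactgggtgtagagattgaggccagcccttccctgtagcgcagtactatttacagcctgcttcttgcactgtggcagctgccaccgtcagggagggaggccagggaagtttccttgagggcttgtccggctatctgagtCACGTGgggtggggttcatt

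In the window of Slc16a3, ACGTG occurred 2 times, beginning 27 and 14 bases before the start, the second in the bases not printed. Pgk1 carried ACGTG 150 bases and CACGT 131 bases before its start. Pygl carried ACGTG at 131 bases and CACGC at 62, Pdk4 carried a single GCGTG at 71, and Gapdh had CACGC at 54 and GCGTG at 44. In Slc16a1 and in Fbp2 the letters CACGT and ACGTG overlapped as CACGTG, which reads the same on both strands and which other factors of the E-box family are also known to bind. Fbp2 is the gene called lower. RefSeq gave windows for 38 of the 39 genes, 54 windows in all since a gene can have several starts. On either strand, ACGTG was present in 13 of the 25 windows of genes called higher (52.0%), in 7 of 28 windows of genes not called, and in 16.6% of all 32851 windows of that length. For GCGTG the shares were 60.0%, 42.9% and 28.2%. The windows also differed in base composition, with a median GC content of 61.6% for genes called higher, 59.2% for genes not called and 52.4% for all windows. These shares describe letters in a window and were not tested.

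Glucose enters the cells through facilitative transporters. Slc2a1, the widely expressed transporter GLUT1, had 2623 reads in ctrl and 6176 in M2. Its log2 fold difference was 1.17, with a 95% interval from 1.1 to 1.23, and it was called higher. Its level per length, in TPM (reads per base of the gene length in the table, scaled to the same sum over all genes in each library), was 70.8 in ctrl and 154 in M2. Slc2a3, the neuronal-type transporter GLUT3, had only 35 and 29 reads, a log2 fold difference of -0.33 with an interval from -1.10 to 0.41. Slc2a1 thus made up over 99% of the summed TPM of both transporters in each library (99.4% and 99.8%).

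The upper part of glycolysis differed by isoform. Of its 11 genes, 6 were called higher and 0 lower, with a median log2 fold difference of 1.03. Hexokinase, which traps glucose as glucose 6-phosphate, was mostly Hk1, with 10521 reads in ctrl and 11320 in M2, which gave a log2 fold difference of 0.04 (-0.0020 to 0.07). Hk2, the isoform of insulin-sensitive and growing tissues, had 395 and 1100 reads, a difference of 1.41 (1.24 to 1.58), and it was called higher. Per length, Hk2 stayed the minor form, at 6.27 TPM in ctrl and 16.1 in M2 against 117 and 116 for Hk1. The isomerase Gpi1 had 4702 and 9073 reads, a log2 fold difference of 0.88 (0.83 to 0.93), which is under 2-fold. Of its exonic bases, 11.48% lie opposite Gm26762 (955 and 1921 reads), and the use of strand in counting is not stated.

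Phosphofructokinase commits the sugar to glycolysis, and its subunits moved apart. Pfkl, the liver-type subunit, had 2467 reads in ctrl and 7459 in M2, which gave a log2 fold difference of 1.53 (1.46 to 1.59). The platelet-type Pfkp had 2677 and 4325 reads, a difference of 0.62 (0.55 to 0.69), and the muscle-type Pfkm had 970 and 979, a difference of -0.06 (-0.19 to 0.07). Only Pfkl of these was called higher. The enzymes that make and break fructose 2,6-bisphosphate, the strongest activator of phosphofructokinase, were expressed at a lower level. Pfkfb3, the form biased towards synthesis, had 228 and 523 reads, a log2 fold difference of 1.12 (0.90 to 1.36). Pfkfb4 had 40 and 121 reads, a difference of 1.5 (1.0 to 2.08), and both were called higher.

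Aldolase splits the sugar into triose phosphates. Aldoa, the muscle-type aldolase found in most cells, had 15925 reads in ctrl and 23465 in M2, which gave a log2 fold difference of 0.49 (0.46 to 0.52). The brain-type Aldoc had 1646 and 3526 reads, a difference of 1.03 (0.95 to 1.12), just past the threshold, and its call is lost when the libraries are scaled by total counts (0.97). Tpi1, which interconverts the triose phosphates, had 3414 and 11304 reads, a log2 fold difference of 1.66 (1.60 to 1.71) and the largest of the upper part.

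The lower part of glycolysis was higher in M2 in nearly every gene. Of its 6 genes 5 were called higher, the median log2 fold difference was 1.40, and all 6 values were above 0. Gapdh (chr6:125161715-125166467), the dehydrogenase that makes the NADH of the pathway, had 8400 reads in ctrl and 29698 in M2, or a log2 difference of 1.75 (1.72 to 1.79). Pgk1 (chrX:106187100-106203699), the first ATP-yielding kinase, had 8138 and 37275 reads, a difference of 2.13 (2.09 to 2.16). Its level went from 343 to 1454 TPM, and its rank by TPM among all genes from 350 to 61. The mutase Pgam1 had 1848 and 4703 reads, a log2 fold difference of 1.28 (1.2 to 1.36).

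Enolase was almost wholly Eno1, with 10735 reads in ctrl and 32562 in M2, which gave a log2 fold difference of 1.53 (1.5 to 1.56). The neuronal enolase Eno2 had 69 and 132 reads, a difference of 0.86 (0.44 to 1.31), and it was not called. Pkm, the pyruvate kinase of non-liver tissues, had 30756 and 71207 reads, a difference of 1.14 (1.12 to 1.16), and it was the single gene of the 39 among the 100 genes with the most reads. The M1 and M2 splice forms of pyruvate kinase come from this 1 gene and cannot be told apart in counts per gene, and the M2 form is unrelated to the name of the library. On the same strand, 15.34% of the exonic bases of Pkm are shared with another annotated gene (RP23-320D23.6, 3720 and 5613 reads), so the assignment of reads there is uncertain.

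**Figure D2:**
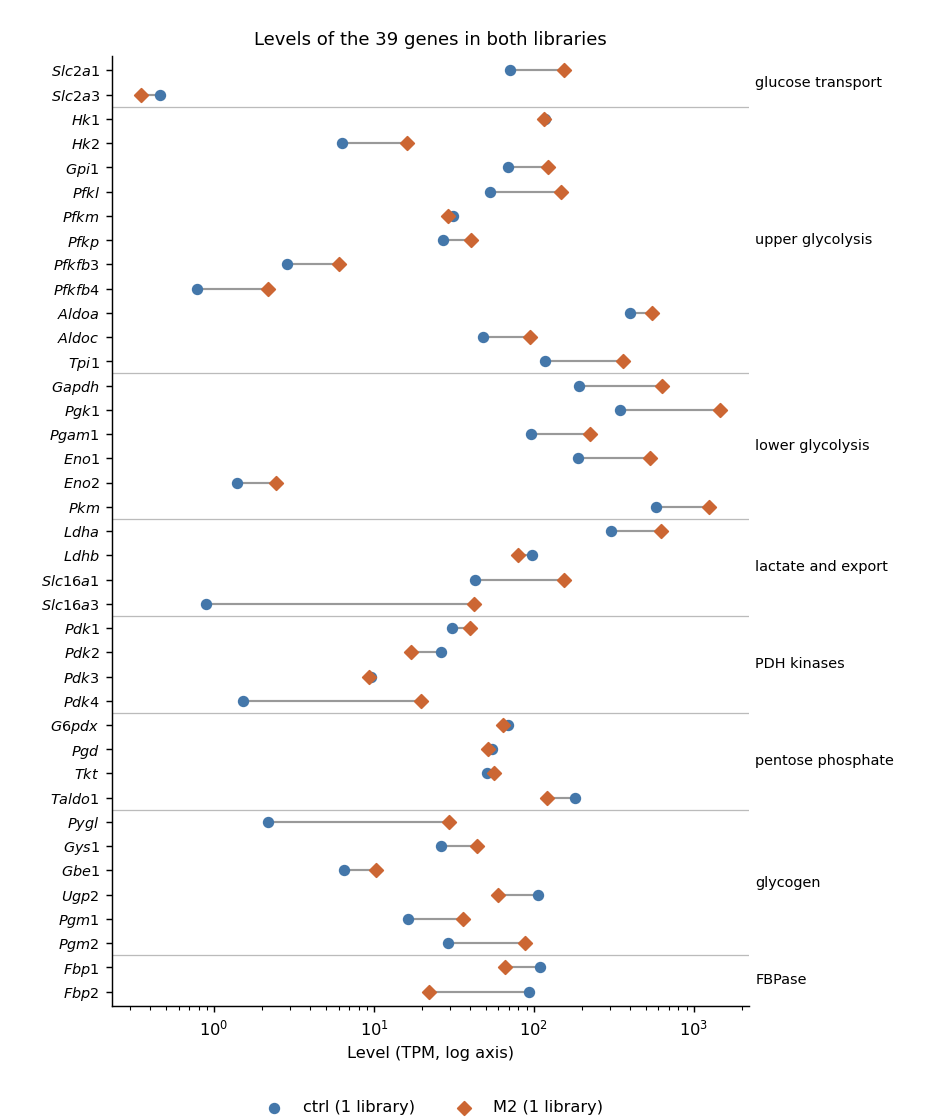
Level of each of the 39 genes in the ctrl library (blue circles) and the M2 library (orange diamonds), in TPM on a log axis, grouped by role. Pgk1 and Pkm reach the highest levels in M2 (1454 and 1246 TPM), an order that depends on the gene length used. Slc2a3 has the lowest level in both libraries, and the pairs of points of the pentose phosphate genes lie close together.

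Steps of the pathway were then compared by adding the TPM of their isoforms. From hexokinase to lactate dehydrogenase there are 11 steps, of which 6 had summed reads at least 2-fold higher in M2. These 6 follow one another from triosephosphate isomerase to pyruvate kinase. Summed reads of phosphofructokinase and lactate dehydrogenase lay just under 2-fold, at log2 fold differences of 0.99 (0.95 to 1.04) and 0.96 (0.93 to 0.99). The ratios that follow are of TPM, without the TMM factors. The summed level of hexokinase was 123 TPM in ctrl and 132 in M2, a ratio of 1.07, the smallest of the 11. The ratio was 1.78 for the isomerase, 1.96 for phosphofructokinase (111 and 218 TPM) and 1.43 for aldolase (449 and 640 TPM). It was 3.06 for triosephosphate isomerase, 3.27 for the glyceraldehyde phosphate dehydrogenase and 4.23 for phosphoglycerate kinase, the largest. Phosphoglycerate mutase followed with 2.35, enolase with 2.80 (190 and 532 TPM), pyruvate kinase with 2.14 and lactate dehydrogenase with 1.75 (401 and 701 TPM). The 17 enzyme genes of these steps together held 0.427% of all ctrl reads (95% Wilson interval 0.424 to 0.429) and 0.928% of all M2 reads (0.925 to 0.932), which is 2.17 times as much. Of the 17 genes, 10 were called higher and 0 lower, and their median log2 fold difference was 1.08.

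**Figure D3:**
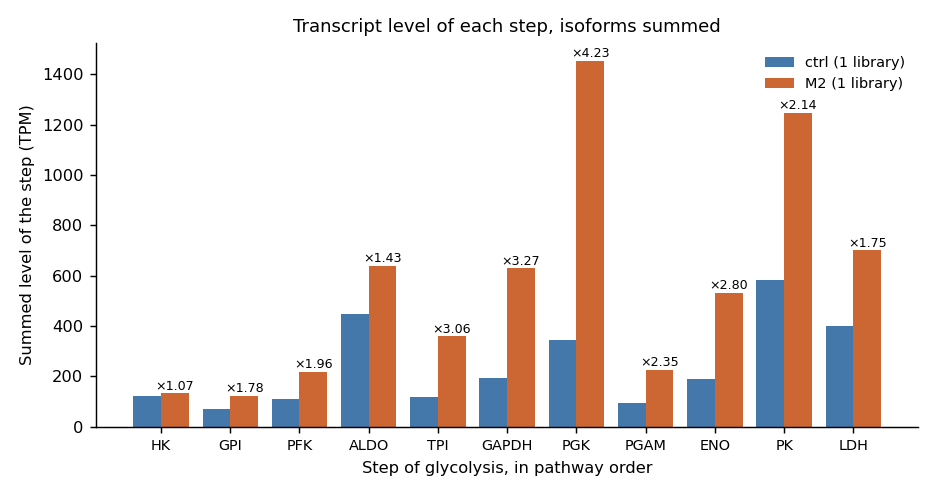
Summed level of the isoforms of each step of glycolysis in the ctrl library (blue) and the M2 library (orange), in TPM on an axis from 0, with the ratio M2 over ctrl above each pair of bars. The ratio is 1.07 at hexokinase (HK), reaches 4.23 at phosphoglycerate kinase (PGK), and is 1.75 at lactate dehydrogenase (LDH).

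At the end of the pathway, the M2 library had more reads of the genes that make and export lactate. Ldha, the subunit of lactate dehydrogenase that favours lactate formation, had 10623 reads in ctrl and 23494 in M2, which gave a log2 fold difference of 1.08 (1.04 to 1.11). Ldhb, the heart-type subunit that favours the return to pyruvate, had 1607 and 1428 reads, a difference of -0.24 (-0.34 to -0.14), which is under 2-fold. The proton-coupled lactate transporter MCT1, encoded by Slc16a1 (chr3:104638668-104658462), had 2012 and 7805 reads, a difference of 1.89 (1.82 to 1.96). Slc16a3 (chr11:120948480-120960868) encodes MCT4, the exporter of highly glycolytic cells, and it had 50 reads in ctrl and 2563 in M2. That is 47.9-fold more, or 5.58 on the log2 scale (5.21 to 6.04), a value at percentile 99.86 of all genes tested. Its level went from 0.890 to 42.2 TPM. Bsg, which is no member of the 39 genes and encodes basigin, the partner that carries both transporters to the membrane, had 9435 and 23034 reads and was called higher with a log2 fold difference of 1.22 (1.18 to 1.25).

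The pyruvate dehydrogenase kinases switch off the complex that turns pyruvate into acetyl-CoA inside mitochondria, and 1 of the 4 was called. Pdk4 (chr6:5483351-5496309), the kinase of fasting and fatty acid use, had 56 reads in ctrl and 788 in M2, which is 13.2-fold more, or 3.72 on the log2 scale (3.35 to 4.16). Pdk1, a known hypoxia-responsive form, had 2541 and 3528 reads, a difference of 0.40 (0.33 to 0.48). Pdk2, the form found in most tissues, had 880 and 613 reads, a difference of -0.59 (-0.74 to -0.44), and Pdk3 had 260 and 272, a difference of -0.0044 (-0.25 to 0.25). The summed level of the 4 kinases was 68.4 TPM in ctrl and 85.6 in M2. Of 5 genes for subunits of the pyruvate dehydrogenase complex, their substrate, 0 were called, with values from -0.06 to 0.25 and a median of 0.20, and the median of the 4 kinases was also 0.20. Of 16 genes of the tricarboxylic acid cycle, which burns the product, 0 were called by the exact binomial test. edgeR's exactTest also called 0 at any assumed spread. The median of the 16 genes was 0.04, with values from -0.54 to 0.20. Among all genes tested, the binomial test called 8.16% higher and 6.55% lower, and exactTest at 0.4 called 0.91% and 0.676%. In lists of 5 and 16 genes, a count of 0 therefore says little.

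The isoform make-up of several steps differed between the libraries, and the change of a ratio between isoforms does not depend on how the libraries are scaled. The ratio of Hk2 to Hk1 was higher in M2 by 1.37 on the log2 scale (1.2 to 1.54), and the share of Hk2 in the summed TPM of hexokinase went from 5.09% to 12.2% (2.56% to 6.36% with the length of the principal transcript). For phosphofructokinase, the share of Pfkl went from 47.8% to 68.2%, that of Pfkm from 27.9% to 13.3% and that of Pfkp from 24.3% to 18.5%. The ratio of Pfkl to Pfkm changed by 1.58 (1.44 to 1.73) and that of Pfkl to Pfkp by 0.90 (0.81 to 1.0). The shares depend on the gene length used. With the principal transcript in place of all annotated exons, Pfkp took 39.3% in ctrl and 30.8% in M2 and stood above Pfkm (20.5% and 10.1%), while Pfkl again rose in share, from 40.2% to 59.1%.

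Aldoc gained on Aldoa by 0.54 on the log2 scale (0.45 to 0.63), and its share went from 10.6% to 14.8% (5.31% to 7.54% with the principal transcript). The ratio of Ldha to Ldhb changed by 1.32 (1.21 to 1.42), and the share of Ldhb fell from 24.2% to 11.4%. Of the pairs compared, Slc16a3 over Slc16a1 changed most, at 3.72 (3.31 to 4.13), although both were called higher. The share of Slc16a3 went from 2.03% to 21.5%. Pairs of pyruvate dehydrogenase kinases without Pdk1, such as Pdk4 and Pdk2, were not compared. Among the pyruvate dehydrogenase kinases, Pdk4 gained on Pdk1 by 3.34 (2.94 to 3.74) and Pdk2 lost to Pdk1 by a log2 ratio of -1.0 (-1.16 to -0.83). The share of Pdk4 went from 2.21% to 22.9% and that of Pdk2 from 38.5% to 19.8%, while Pdk1 had 45.2% and 46.4%. For Pfkfb4 over Pfkfb3 the change was 0.40, and its interval, from -0.16 to 0.96, included 0.

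**Figure D4:**
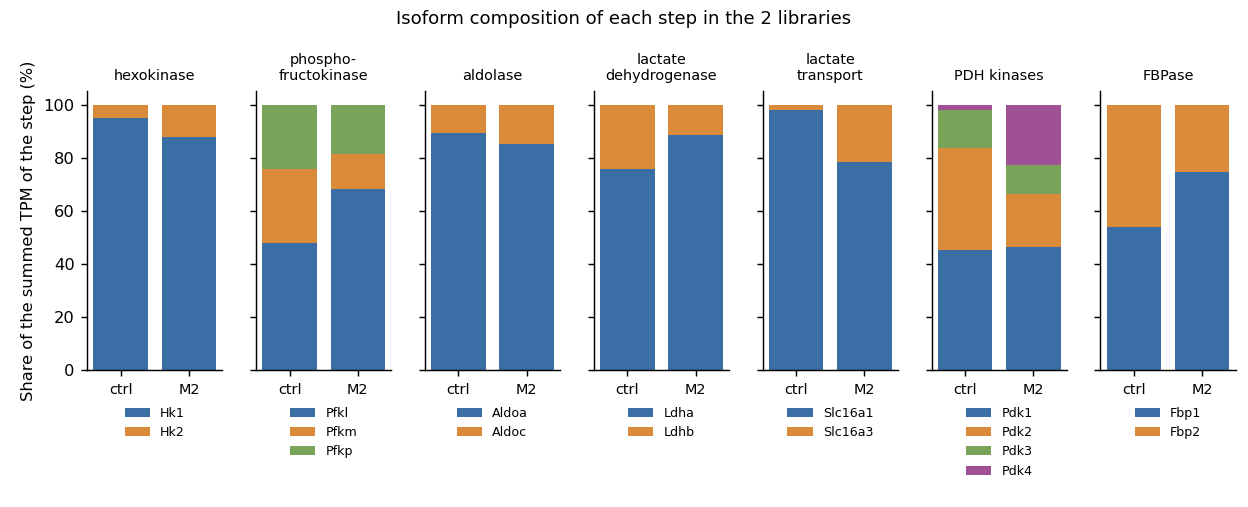
Share of each isoform in the summed TPM of its step, in percent, in the ctrl and M2 libraries, for 7 steps with several isoforms. Pfkl, Slc16a3 and Pdk4 take a larger share in the M2 library, and Pfkm, Ldhb, Pdk2 and Fbp2 a smaller one.

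The pentose phosphate pathway branches off at glucose 6-phosphate, and 0 of its 4 genes were called in either direction, also at each assumed spread in edgeR's exactTest. At an adjusted p under 0.05 and any fold, Tkt was higher and Taldo1 lower by the exact binomial test. G6pdx, which makes the first NADPH, had 2249 reads in ctrl and 2241 in M2, which gave a log2 fold difference of -0.07 (-0.16 to 0.01). Pgd, the phosphogluconate dehydrogenase, had 3703 and 3784, a difference of -0.04 (-0.10 to 0.03). In the branch without oxidation, transketolase (Tkt) had 3491 and 4207 reads, a difference of 0.20 (0.13 to 0.27), and transaldolase (Taldo1) had 4113 and 2996, a difference of -0.53 (-0.59 to -0.46). The group's median was -0.06, against 1.08 for the 17 enzyme genes of glycolysis. With 4 genes, a count of 0 called is near the share of all genes called, and of 9 other genes of the pathway 2 were called higher (H6pd and Tktl1) and 1 lower (Shpk). Reads of G6pdx are uncertain in part, because 13.57% of its exonic bases lie opposite Ikbkg and the use of strand in counting is not stated.

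Genes of glycogen metabolism differed in both directions. Of 6 genes, 3 were called higher and 0 lower, with a median log2 fold difference of 0.99. Pygl (chr12:70190811-70231488), the liver-type phosphorylase that releases glucose 1-phosphate from glycogen, had 88 reads in ctrl and 1284 in M2, which is 13.8-fold more, or 3.78 on the log2 scale (3.49 to 4.13). Its level went from 2.18 to 29.4 TPM. The phosphoglucomutases that link glucose 1-phosphate with glucose 6-phosphate were both called higher. The gene on chr4, which the table names Pgm2 and which RefSeq and GENCODE M21 now name Pgm1, had 899 and 2917 reads, a difference of 1.63 (1.52 to 1.74). Its reads are uncertain in part, since 13.63% of its exonic bases lie opposite Itgb3bp, which had 233 and 603 reads. The gene on chr5, which the table names Pgm1, had 443 and 1067 reads, a difference of 1.2 (1.04 to 1.36).

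On the synthetic side, glycogen synthase (Gys1) had 1327 reads in ctrl and 2407 in M2, which gave a log2 fold difference of 0.79 (0.69 to 0.89). The branching enzyme Gbe1 had 369 and 628 reads, a difference of 0.70 (0.51 to 0.89). Ugp2, which makes the UDP-glucose used for glycogen and for other sugar chains, had 3438 and 2096 reads, a difference of -0.78 (-0.86 to -0.70). None of these reached 2-fold. The brain-type phosphorylase Pygb, from the list of other pathway genes, had 4345 and 4124 reads, a difference of -0.14 (-0.21 to -0.08), so its level of 85.5 and 75 TPM was above that of Pygl in both libraries. The muscle-type Pygm had 34 and 76 reads and was called higher, at 1.07 (0.49 to 1.72), beside the higher sum of skeletal muscle markers given above, whose part in it was not tested.

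The fructose bisphosphatases, which undo the step of phosphofructokinase in gluconeogenesis, were both lower in M2. Fbp2 (chr13:62836884-62858400), the muscle-type enzyme, had 1306 reads in ctrl and 336 in M2, which is 4.07-fold fewer, a log2 fold difference of -2.02 (-2.21 to -1.85), and it was the 1 gene of the 39 called lower. Fbp1, the liver-type enzyme, lies 6353 bases from Fbp2 on the same chromosome and had 1970 and 1280 reads, a difference of -0.69 (-0.79 to -0.59), which is under 2-fold. The summed level of both went from 203 to 88.0 TPM, and the share of Fbp2 from 46.0% to 25.2%. Of the other genes of gluconeogenesis, the mitochondrial carboxykinase Pck2 had 604 reads in ctrl and 525 in M2, pyruvate carboxylase (Pcx) 566 and 416, and the widely expressed glucose 6-phosphatase G6pc3 472 and 382, none of them called. The cytosolic carboxykinase Pck1 had 0 reads in both libraries, and the liver glucose 6-phosphatase G6pc had 0 and 1.

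To place the 39 genes in carbon metabolism, 98 other genes of the same pathways were listed, of which 82 had enough reads to be tested. Their median log2 fold difference was 0.01, near that of all genes, with 10 called higher, 5 lower and 67 not called. Among all genes tested, 8.16% were called higher and 6.55% lower, so these counts are not far from those shares. The urate and sugar transporter Slc2a9 had 7 reads in ctrl and 186 in M2, or a log2 difference of 4.48 (3.59 to 6.0), and the sodium-coupled glucose transporter Slc5a1 had 341 and 1509, a difference of 2.07 (1.91 to 2.25). The hexose 6-phosphate dehydrogenase of the endoplasmic reticulum, H6pd, had 374 and 1123 reads, a difference of 1.51 (1.35 to 1.69). Aldose reductase (Akr1b3) was higher by 1.12 (0.98 to 1.27), and Stbd1, a glycogen-binding protein, by 1.07 (0.95 to 1.2). For the others called higher, Slc2a6 had 2 and 18 reads, Slc16a8 16 and 38, and Tktl1 10 and 24.

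Of the genes called lower, Pgm5, a phosphoglucomutase relative found at adherens junctions of muscle and without that enzyme activity, had 2667 reads in ctrl and 182 in M2, or a log2 difference of -3.94 (-4.17 to -3.73). Ppp1r3c, a subunit that directs a phosphatase to glycogen, had 1915 and 491 reads, a difference of -2.03 (-2.18 to -1.89). The sedoheptulose kinase Shpk had 620 and 177 reads, a difference of -1.87 (-2.13 to -1.63). Slc2a13 had 49 and 16 reads, and Gapdhs, the sperm form of the dehydrogenase, had 85 and 42. The hexokinase Hk3 of blood cells had 0 reads in both libraries, and Rpia, which isomerises ribose 5-phosphate, had 633 and 851, a difference of 0.36 (0.21 to 0.51).

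Known hypoxia genes outside the 39 genes, nearly all of them without a role in glycolysis, were set beside them. The list includes Pfkfb1, which is also counted among the other pathway genes, and Egln3, which is also counted among the regulators. Of 24 such genes, 13 were called higher and 1 lower, where 8.16% and 6.55% of all genes tested were called. Their median log2 fold difference was 1.15. With an assumed coefficient of variation of 0.4, edgeR's exactTest called 2 higher and 0 lower, where 0.91% and 0.676% of all genes were called. Vegfa was among the calls lost. Carbonic anhydrase 9 (Car9), which handles acid outside the cell, had 96 reads in ctrl and 2034 in M2, or a log2 difference of 4.32 (4.04 to 4.65), and the angiogenic factor Vegfa had 934 and 7510, a difference of 2.94 (2.84 to 3.04). Stc2 was the 1 gene called lower, with 9668 and 2572 reads. With 1 library per group, no correlation between these genes and the glycolytic genes across samples could be computed.

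**Figure D5:**
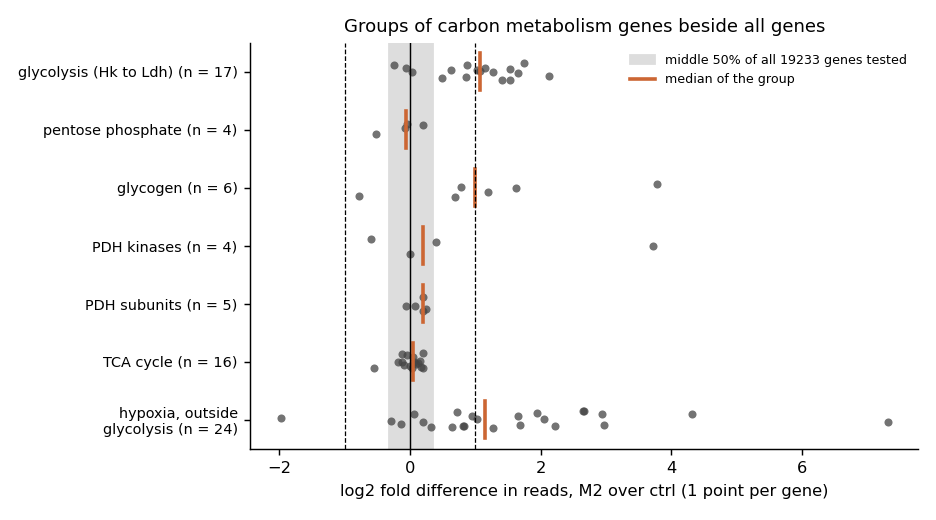
Log2 fold difference in reads, M2 over ctrl, of single genes (points, spread vertically only for visibility) in 7 groups of carbon metabolism and hypoxia genes, with the median of each group (orange line), the middle 50% of all 19233 genes tested (grey band) and 2-fold (dashed lines). The medians of glycolysis (1.08) and of the hypoxia genes (1.15) lie to the right of the grey band, and those of the pentose phosphate genes (-0.06) and the tricarboxylic acid cycle (0.04) lie inside it.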

How the data were processed

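RNA of 2 libraries, ctrl and M2, was grouped by the sample labels. For each of 49492 genes, the deposited table gives counts of reads as whole numbers that the authors did not normalize, with coordinates and a gene length. The submitters' processing notes name the builds mm10 and GRCm38. Per the labels, RNA came from a column kit and libraries from a SMARTER mRNA kit, while the study's methods name RNAiso Plus and sequencing on a HiSeq X. The tools for alignment and counting and the use of strand are not given in the sources used here. The series text speaks of a microarray, but the values are sequencing counts. Totals were 26912610 reads in ctrl and 29413844 in M2. A count of 0 allows up to 3 reads, and since no molecular identifiers are stated, intervals and this floor cover counting error only.

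Library sizes were multiplied by the TMM factors of edgeR 4.0.16 (R 4.3.3), 1.02 for ctrl and 0.980 for M2. Genes with at least 10 reads summed over both libraries were tested (19233 genes) by a two-sided exact binomial test in scipy 1.17.1, with Benjamini-Hochberg adjustment over all of them. The log2 fold difference used a pseudocount of 1 read, with 95% Clopper-Pearson intervals. This test compares the reads of the libraries, not the conditions. As an alternative, edgeR's exactTest was run with an assumed coefficient of variation of 0.1, 0.2 or 0.4. Levels between genes were compared as TPM over all genes, per base of the lengths in the table, which cover all annotated exons. The binomial test was tested on simulated data that held counting error only. Such data hold no differences between cultures, so the simulation says nothing about those.

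The 39 genes and all lists were chosen with earlier results of these data known. All 39 are described. Of the other pathway genes, those called with at least 50 reads in one library were named in order of size, at most 12, with Hk3, Pygb, Rpia, H6pd and Bsg, and of the regulators those at least 2-fold apart. Slc2a6, Slc16a8, Tktl1, Slc2a13, Pck1, Pck2, Pcx, G6pc and G6pc3 were chosen after their values were seen. So were Hif1a, Epas1, Myc, Txnip, and the phosphorylase kinase subunits and reference genes in the closing section. Promoter windows came from RefSeq on GRCm38.p6.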

Additional observations from a re-analysis of the deposited data

How the results depend on the processing

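No paired analysis was possible because ctrl and M2 have a single library apiece, and for the same reason no replicate could be left out. Of the 39 genes, 36 had the same direction and the same call under other scalings, pseudocounts, filters on low counts, a correction for gene length and added retrocopies, the last chosen after the data were seen. The exceptions were Aldoc (0.97 with total counts as scaling, no longer called), Hk1 (-0.023 with total counts) and Pgd (0.021 with the length trend removed). With total counts as scaling, the median log2 fold difference was 0.82 for all 39 genes, 1.35 for lower glycolysis and 1.42 for lactate. At least 1 CPM in both libraries left 6 other pathway genes called higher, and Slc2a1 alone in glucose transport (median 1.17). With an assumed coefficient of variation of 0.2, edgeR's exactTest called 5 other pathway genes higher and 3 lower, and Slc2a1, Pfkfb3, Aldoc, Pkm, Ldha and Pgm1 were no longer called. With 0.4 it called 3 of the 39 genes higher and 0 lower, and of the other pathway genes 1 higher and 1 lower. At 1.5-fold, Gpi1, Pfkp, Eno2, Gys1 and Gbe1 were called higher besides the 19 genes, and 4 of the 39 genes and 13 other pathway genes were called lower. At 4-fold, 4 of the 39 genes were called higher and Fbp2 lower, and 3 other pathway genes higher and 2 lower. The other pathway genes called higher at 1.5-fold, and the shares of all genes called at these thresholds, are not given here. Against the sum of their step, in place of a single isoform, the log2 changes were 0.53 for Pfkl, -0.37 for Pfkp, 0.12 for Ldha, 0.13 for Pgm2 and -0.94 for Fbp2. The sign for Pfkp differs from that of its ratio to Pfkm (0.68) because the sum holds Pfkl. The glycolytic share of reads was 0.449% and 0.968% without mitochondrial genes, and 0.396% and 0.878% without the 100 genes with the most reads. Depth limits Slc2a3, Pfkfb4, Eno2, Slc16a3, Pdk4 and Pygl most, which had fewer than 100 reads in one library. Reads that belong to retrocopies could not be told apart from those of the parent gene: the annotated copies of Pgam1 held 223 and 517 reads, and with them its difference was 1.26 in place of 1.28. Differences between cultures were not measured and could be larger than any of these.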

Other observations

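Of 23 regulators of sugar metabolism, 2 were called higher and 1 lower, with a median log2 fold difference of 0.22. These counts are near the shares of all genes tested that were called, 8.16% higher and 6.55% lower. Egln3, an oxygen-sensing prolyl hydroxylase that marks hypoxia-inducible factors for destruction and is itself one of their known targets, had 499 reads in ctrl and 4115 in M2, or a log2 fold difference of 2.97 (2.84 to 3.11). Its relative Egln1 had 1229 and 2634 reads, a difference of 1.03 (0.93 to 1.13). Mycn, a transcription factor of the Myc family, had 253 and 25 reads, a difference of -3.36 (-4.06 to -2.81). Of the other factors, Hif1a had 4836 and 5370 reads (0.08), Myc 492 and 602 (0.22) and Epas1 3402 and 7027, and none of these was called. The value of Epas1, 0.98 (0.92 to 1.04), lies just under the 2-fold threshold and its interval overlaps that of Egln1. Txnip, an inhibitor of glucose uptake that is known to follow glucose supply, had 22857 and 13080 reads, a difference of -0.87 (-0.91 to -0.84), and it was not called.

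Of 5 genes for subunits of phosphorylase kinase, which activates glycogen phosphorylase, 0 were called by the exact binomial test or by edgeR's exactTest. With 5 genes, that count is near the share of all genes called. All 5 log2 fold differences were below 0, with a median of -0.47. Phka1 was at -0.94 (-1.15 to -0.73), Phkb at -0.91 (-1.0 to -0.83) and Phka2 at -0.47 (-0.63 to -0.31). The intervals of Phkg1 (13 and 11 reads) and Phkg2 included 0.

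Gapdh served as the reference gene for quantitative PCR in the study's methods. In these libraries it differed by 1.75 on the log2 scale, so a gene with an equal TMM-scaled level in both libraries would have a ratio to Gapdh that is lower in M2 by that amount. Tbp had 1593 and 1678 reads, a log2 fold difference of 0.0057, and relative to Gapdh it stood at -1.75. Actb had a difference of 0.22 and stood at -1.53 relative to Gapdh, and Hprt had 0.49 and stood at -1.26. No quantitative PCR was analysed here.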
